A study of Mus musculus with 15 samples.

Results

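The genes described here encode the proteins that move calcium out of the cell across the plasma membrane: 3 sodium-calcium-potassium exchangers (NCKX; Slc24a1, Slc24a2 and Slc24a3), 3 sodium-calcium exchangers (NCX; Slc8a1, Slc8a2 and Slc8a3) and 4 plasma membrane calcium pumps (PMCA; Atp2b1, Atp2b2, Atp2b3 and Atp2b4). They were taken as all probes on an Illumina mouse expression beadchip whose annotated gene is 1 of these 10 of 16593 annotated genes, which gave 20 of the 25697 probes in the table. The mice were on a C57BL/6 background and 30 days old, and each of the 15 arrays held RNA from both retinas of 1 animal. The 3 groups of 5 mice were Nrl-/- (the Nrl knockout, used as control), CNGA3-/-/Nrl-/- (the Cnga3 double knockout) and CNGB3-/-/Nrl-/- (the Cngb3 double knockout). All groups thus lack Nrl, a transcription factor without which would-be rods take on cone features, and none is a wild-type retina. Cnga3 and Cngb3 each encode 1 kind of subunit of the channel through which calcium enters the cone outer segment. The groups are named here by their labels.

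In a photoreceptor outer segment, calcium enters through the cyclic nucleotide-gated channel in the dark and leaves through NCKX exchangers, which use the inward sodium and the outward potassium gradients. NCKX1, the product of Slc24a1, is the exchanger of rod outer segments and binds the rod channel. NCKX2, the product of Slc24a2, is known from cones of several vertebrates and from brain neurons, and mouse cones also use NCKX4. At the synaptic terminal and in the inner segment, calcium is removed mainly by PMCA pumps, which spend ATP, while NCX exchangers swap sodium for calcium without potassium.

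All 8 cone markers were detected on every array, while Nrl itself gave no detected signal (0 of 15). The median deposited intensity of an array ran from 136.8 to 171, and an array detected 10302 to 13763 probes (detection p under 0.01). Control replicate 3 had the fewest detected probes. Arrays of a group correlated at 0.9263 to 0.9898. Lens crystallin signal was low in 2 controls, with Cryaa at 4.28 and 6.6 in control replicates 1 and 3 against 12.42 or more on the other 13 arrays, and calls that end or appear without these 2 arrays are given beside the result. Cngb3 transcript was at 6.95 ± 0.21 (SD, n = 5) in the Cngb3 double knockout against 9.03 ± 1.1 in the control (limma adjusted p = 0.0108). Cnga3 transcript was not called lower in the Cnga3 double knockout, where the brighter of its probes read 8.3 ± 0.358 (n = 5) against 8.58 ± 0.431 in the control (limma adjusted p = 0.396). Whether its probes lie in the deleted stretch is not given in the labels or files, so these values do not check that group's label. Values are normalized log2 intensities unless stated otherwise, so 1 unit is a doubling. In such whole-retina RNA, fewer cells of a type and less RNA per cell cannot be told apart.

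Of the 20 probes, 7 were detected on all 15 arrays and 13 were near background throughout. The 7 probes, which cover 6 of the 10 genes (Slc24a1, Slc24a3, Slc8a1, Slc8a3 with 2 probes, Atp2b1 and Atp2b2), are the ones that were tested. The remaining 13 probes were detected in 7 of 195 probe and array pairs, with deposited intensities of 108.6 to 175.6. Among the tested probes, those of Slc24a1 and Slc8a3 were near the floor in the controls. Their deposited control intensities, 164.2 to 211.9 and 159.3 to 217.9, overlap that range, so their fold changes start from a low control signal. Slc24a2 was detected in 1 of 45 pairs over 3 probes, at intensities of 108.6 to 164.1, so the NCKX2 transcript known from cones of other species was not measurable here. Slc8a2, a neuronal NCX gene, was detected in 0 of 30 pairs. Atp2b3, a pump gene of the brain, was detected in 1 of 30 pairs. Atp2b4, which encodes a pump found in the sperm tail but not only there, was detected in 4 of 45 pairs, all on 1 of its 3 probes. For these 4 genes no level and no change can be given, which does not show that they were silent. Another probe of Slc8a3 was detected on 0 arrays, and the other probes of Atp2b2 were detected on 0 and on 1 array.

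**Figure D1:**
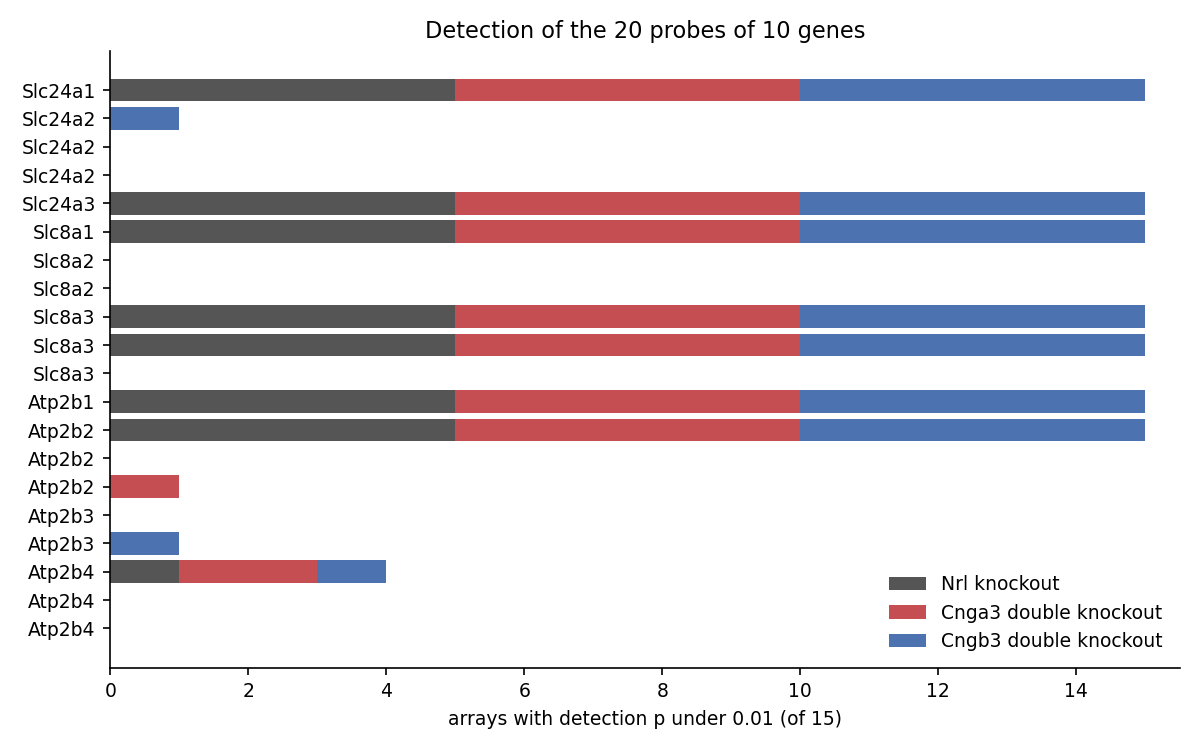
Number of arrays, of 15, on which each of the 20 probes was detected at a detection p under 0.01, by gene and coloured by group. The 7 long bars are detected on all 15 arrays, and no other probe reaches more than 4.

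The promoters of the 3 genes that changed are shown here because these genes have very different starts. The sequences are from RefSeq on GRCm38.p6, from 250 bases before to 50 bases after the annotated start, written 5′ to 3′ on the gene's strand. Capitals mark each CG pair, the site of DNA methylation in mammals.
Slc24a1 promoter, chr9:64951571-64951870, minus strand: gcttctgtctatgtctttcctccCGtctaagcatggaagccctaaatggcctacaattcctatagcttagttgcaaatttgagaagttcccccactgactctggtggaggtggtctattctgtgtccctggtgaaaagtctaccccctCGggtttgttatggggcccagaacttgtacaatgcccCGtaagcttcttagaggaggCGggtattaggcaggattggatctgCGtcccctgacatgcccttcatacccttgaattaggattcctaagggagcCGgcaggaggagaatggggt
Slc8a3 promoter, chr12:81333131-81333430, minus strand: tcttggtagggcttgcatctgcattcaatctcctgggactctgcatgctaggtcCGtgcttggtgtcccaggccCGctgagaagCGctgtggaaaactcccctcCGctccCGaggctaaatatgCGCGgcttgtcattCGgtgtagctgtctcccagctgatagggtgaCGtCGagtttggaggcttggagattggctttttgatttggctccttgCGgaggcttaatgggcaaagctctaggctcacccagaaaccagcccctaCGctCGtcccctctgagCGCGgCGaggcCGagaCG
Atp2b1 promoter, chr10:98914392-98914691, plus strand: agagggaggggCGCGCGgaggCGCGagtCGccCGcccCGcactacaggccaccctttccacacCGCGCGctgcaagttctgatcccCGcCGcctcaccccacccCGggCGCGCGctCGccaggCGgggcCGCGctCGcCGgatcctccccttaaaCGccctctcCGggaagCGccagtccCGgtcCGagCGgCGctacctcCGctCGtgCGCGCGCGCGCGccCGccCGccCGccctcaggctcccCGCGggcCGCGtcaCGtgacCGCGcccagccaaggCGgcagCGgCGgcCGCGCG
The Slc24a1 window has 6 CG pairs and 51% GC, close to the medians of 7 pairs and 52.7% over all 32851 promoters of the table. The Slc8a3 window has 18 pairs and 58.3% GC. The Atp2b1 window has 54 pairs and 79.3% GC, more pairs than 99.7% of promoters, and the other annotated start of Atp2b1, at chr10:98914902-98915201, has 45. None of these 4 windows holds TAATCC or its reverse GGATTA, the core bound by the photoreceptor factor Crx, which 7.06% of all promoters hold. None holds AAGGTCA or its reverse TGACCTT, the core bound by Esrrb and other nuclear receptors, which 4.72% hold. These searches cover only the letters of these windows.

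Slc24a1, the rod exchanger gene, had the largest change of the 6 measured genes in the Cngb3 double knockout. In the control its 5 values were 6.2, 6.08, 6.29, 6.51 and 6.45, in the Cnga3 double knockout 7.53, 7.14, 7.22, 6.42 and 6.75, and in the Cngb3 double knockout 7.86, 7.96, 8.31, 8.5 and 8.07. The groups thus lay in the order control, Cnga3, Cngb3: every Cngb3 value lay above every Cnga3 and control value, while the lowest Cnga3 value lay inside the control range. As deposited, before any normalization, intensities were 164.2 to 211.9 in the control, 205.9 to 356.7 in the Cnga3 and 305.3 to 455 in the Cngb3 double knockout. The control intensities overlap those of the member probes near background, which reach 175.6.

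The mean of Slc24a1 rose from 6.31 ± 0.176 (SD, n = 5) in the control to 8.14 ± 0.261 (n = 5) in the Cngb3 double knockout, a 3.56-fold rise (log2 fold change 1.83, SE 0.188, 95% interval 1.44 to 2.23, limma adjusted p = 4.11e-05). By p-value this was number 8 among the 13077 probes tested. In the Cnga3 double knockout the mean was 7.01 ± 0.431, a 1.63-fold rise (0.70, SE 0.188, interval 0.31 to 1.10, limma adjusted p = 0.0309). The direct comparison of the double knockouts gave 2.19-fold less in Cnga3 than in Cngb3 (log2 fold change -1.13, interval -1.52 to -0.73, limma adjusted p = 0.0108), and all 5 values of 1 group lay below all 5 of the other. The rise with loss of Cngb3 and the difference between the double knockouts stayed past the threshold under all 11 alternative settings and whichever of the 15 arrays was left out. The highest limma adjusted p was 0.000623 for the rise. For the difference it was 0.0488, without Cngb3 double knockout replicate 3, which is close to the threshold. On the authors' deposited log2 scale, which has no background subtraction, the log2 fold changes of Slc24a1 were smaller, 1.03 for Cngb3, 0.34 for Cnga3 (adjusted p = 0.0555) and -0.69 between the double knockouts. The smaller rise with loss of Cnga3 did not hold throughout: it ended without control replicate 2 (adjusted p = 0.0784), without Cnga3 double knockout replicates 1 (0.0637), 2 (0.0692) or 3 (0.0651), and without control replicates 1 and 3 together (0.0721).

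Slc24a3, which encodes the widely expressed exchanger NCKX3, was not called, although 6 of 11 alternative settings called it higher in the Cnga3 double knockout. Its values were 11.9, 11.77, 12.09, 11.88 and 11.5 in the control, 12.22, 12.57, 12.31, 11.92 and 12.27 in the Cnga3 and 12.05, 11.92, 11.94, 12.02 and 12.09 in the Cngb3 double knockout. The Cnga3 values were mostly higher but overlapped the controls. The log2 fold change in the Cnga3 double knockout was 0.43 (SE 0.134, interval 0.15 to 0.71, limma adjusted p = 0.0584), which just misses the threshold. The 6 settings gave 0.42 to 0.57, with adjusted p from 0.00484 (array weights) to 0.0459 (probes detected on all 15 arrays), and included leaving out control replicates 1 and 3 (0.54, adjusted p = 0.0301). It was also called without Cnga3 double knockout replicate 4 (0.51, adjusted p = 0.0201) or control replicate 3 (0.49, 0.0344). In the Cngb3 double knockout it was 0.17 (interval -0.11 to 0.46, adjusted p = 0.49).

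Slc8a3, the gene of the exchanger NCX3 known from brain and skeletal muscle, was higher in both double knockouts on both of its detected probes. On the probe ILMN_2954449 the controls read 6.44, 5.84, 6.35, 5.48 and 6.12, the Cnga3 double knockouts 7.04, 7.12, 7.54, 6.23 and 7.25, and the Cngb3 double knockouts 6.98 to 7.18. The Cngb3 values all lay above the controls, and in the Cnga3 group replicate 4 alone lay inside the control range. On the probe ILMN_2683554 the controls read 6.11, 5.7, 6.12, 5.75 and 6.34, the Cnga3 double knockouts 7.28, 7.18, 7.33, 6.29 and 6.71, and the Cngb3 double knockouts 6.82, 6.56, 7.1, 7.1 and 6.9. This probe gave the same picture, again with Cnga3 replicate 4 alone inside the control range. Both probes were near the floor in the controls.

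Slc8a3 rose 1.98-fold on the first and 1.94-fold on the other probe in the Cnga3 double knockout (log2 fold changes 0.99 and 0.95, SE 0.215 and 0.198, limma adjusted p = 0.0124 and 0.00967). In the Cngb3 double knockout it rose 2.03-fold and 1.86-fold (1.02 and 0.89, limma adjusted p = 0.0193 and 0.0244). The double knockouts did not differ by the test, with log2 fold changes of -0.03 (interval -0.48 to 0.42) and 0.06 (-0.36 to 0.48), so differences up to these bounds remain possible. In the Cngb3 comparison both probes missed the threshold without control replicate 2 (adjusted p = 0.0535 and 0.068), Cngb3 double knockout replicate 1 (0.0525 and 0.0589) or replicate 3 (0.0511 and 0.0659), and the other probe also without replicate 4 (0.0696). On the deposited scale of the authors the same changes read 0.45 and 0.42 for Cnga3 and 0.45 and 0.38 for Cngb3, all past the threshold.

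Slc8a1, which encodes NCX1, the main exchanger of heart muscle, read 7.95 ± 0.228 in the control, 7.9 ± 0.221 in the Cnga3 and 8.03 ± 0.179 in the Cngb3 double knockout (SD, n = 5 each). The 3 ranges overlapped in part, the highest value being a Cngb3 and the lowest a control array. The log2 fold changes were -0.05 (interval -0.35 to 0.26, limma adjusted p = 0.86) and 0.08 (-0.23 to 0.38, adjusted p = 0.801), and their signs turned with median centring or with single arrays left out, so no direction is given.

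**Figure D2:**
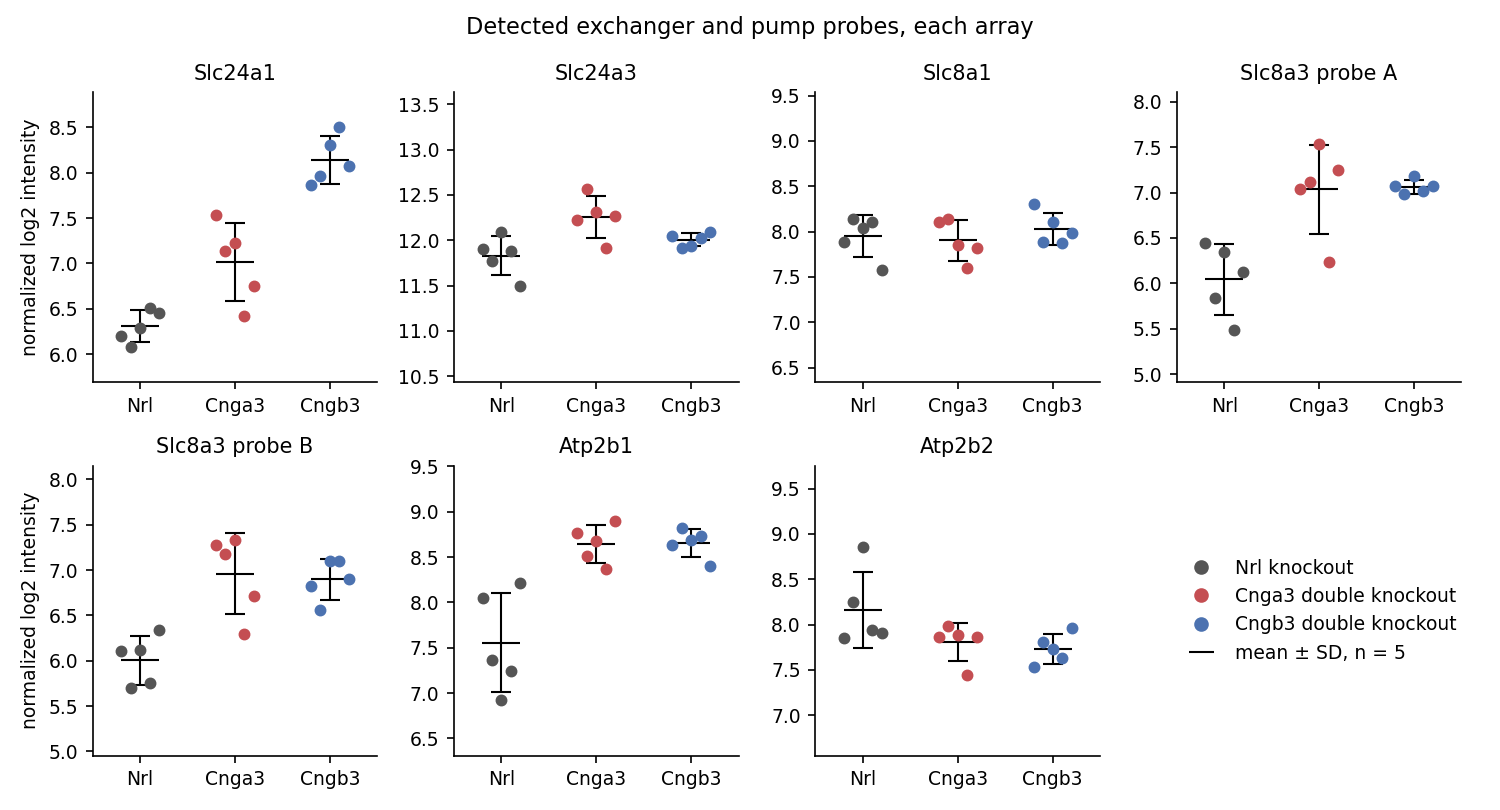
Normalized log2 intensity of the 7 detected probes on each array (points) by group, with the mean and SD of 5 arrays. Slc24a1 steps up from the control over Cnga3 to Cngb3, Slc8a3 (probe A is ILMN_2954449, probe B is ILMN_2683554) and Atp2b1 sit higher in both double knockouts, and the other genes overlap.

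Atp2b1, the gene of PMCA1, a pump found in most cells and at photoreceptor terminals, was higher in both double knockouts by about the same amount. The controls read 8.05, 7.37, 6.92, 7.24 and 8.21, the Cnga3 double knockouts 8.77, 8.51, 8.68, 8.37 and 8.9, and the Cngb3 double knockouts 8.63, 8.82, 8.69, 8.73 and 8.4. Neither double knockout overlapped the controls, which were themselves spread over more than 1 log2 unit and were lowest in replicate 3. The rise was 2.12-fold in the Cnga3 double knockout (log2 fold change 1.09, SE 0.209, interval 0.65 to 1.53, limma adjusted p = 0.00675) and 2.14-fold in the Cngb3 double knockout (1.10, interval 0.66 to 1.54, limma adjusted p = 0.0121). Their difference was -0.01 (interval -0.45 to 0.43, adjusted p = 0.992). Both calls held under all alternative settings and without any 1 array, with adjusted p of up to 0.0355.

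Summed signals of vascular and amacrine markers were also mostly higher in the double knockouts, with some overlap. The summed normalized intensity of 5 vascular markers on the array ran from 1290 to 3380 in the control, 3500 to 4450 in the Cnga3 and 3340 to 4950 in the Cngb3 double knockout, with 2 of 5 called higher and 1 lower in Cnga3 and 1 higher in Cngb3. The sum of 8 amacrine markers ran from 10000 to 14100, from 13100 to 18200 and from 15100 to 16000, with 1 called higher in Cnga3 and 0 in Cngb3. The sum of 8 cone markers ran the other way, from 94000 to 112000 in the control, 76200 to 96700 in Cnga3 and 82800 to 95400 in Cngb3, with 1 called lower in each. That of the 6 rod markers on the array ran from 19700 to 26800, 13800 to 21300 and 18300 to 21700, with 1 called higher and 1 lower in Cnga3 and 0 higher and 1 lower in Cngb3. Horizontal cell markers (4, with Onecut1 and Calb1 detected on 0 arrays) summed to 588 to 924, 782 to 1090 and 1020 to 1180, with 0 called. Pigment epithelium markers (7) summed to 9000 to 15500 in the control, 4650 to 19100 in Cnga3 and 12700 to 22500 in Cngb3. Of these, 2 were called lower in Cnga3 than in the control and 3 lower in Cnga3 than in Cngb3, the direction in which Slc24a1 also differed between the double knockouts. Mueller glia markers summed to 11800 to 14100, 11700 to 14300 and 12700 to 14100, with 1 called higher in each double knockout. Bipolar markers summed to 18000 to 20600, 16600 to 21300 and 17300 to 18700, with 1 called higher in Cnga3. Ganglion cell markers summed to 7050 to 9150, 6020 to 7630 and 7150 to 8100, with 1 called lower in Cnga3. The part of any of these cells in the changes of Slc24a1, Slc8a3 and Atp2b1 was not tested.

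Atp2b2, which encodes PMCA2, the pump of hair cell bundles and of many neurons, pointed the other way. It read 7.85, 8.25, 8.86, 7.94 and 7.91 in the control, 7.86, 7.98, 7.89, 7.45 and 7.86 in the Cnga3 and 7.53, 7.81, 7.73, 7.63 and 7.96 in the Cngb3 double knockout. The groups overlapped, and replicate 3 was the highest control. The log2 fold changes were -0.36 (interval -0.73 to 0.02, limma adjusted p = 0.215) and -0.43 (interval -0.81 to -0.06, limma adjusted p = 0.179), so no change was called.

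In count, 4 of the 7 probes (57.1%), for 3 of 6 genes, were higher and 0 lower in the Cnga3 double knockout, where 8.04% of all 13077 tested probes were called and 4.61% were called higher. The same 4 probes were higher and 0 lower in the Cngb3 double knockout, against 2.68% of all probes called and 1.44% called higher. Both comparisons use the same 5 controls, so these are not separate pieces of evidence. Slc8a3 counts with both of its detected probes. As the genes were chosen with earlier results of these data known, these shares do not test for an excess. With median centring in place of quantile normalization, all probes shifted by a median of 0.11 in the Cnga3 comparison and higher probes went from 57.4 to 83.4% of the called. In that scaling Slc24a1 rose by 0.88, Slc8a3 by 1.17 and 1.13 and Atp2b1 by 1.24, all past the threshold. In the comparison of the double knockouts 1 of 7 probes was called, the lower Slc24a1 in Cnga3, against 0.405% of all probes called and 0.222% called lower. Groups did not overlap for 1 of 7 probes in the Cnga3 comparison (6.74% of all probes), 4 of 7 in the Cngb3 comparison (6.69%) and 1 of 7 between the double knockouts (4.93%). The median log2 fold change over the 7 probes was 0.70 and 0.89 in the double knockouts against the control, where the median over all probes was -0.01 and 0. Of the 3 targeted genes, Cnga3 lies on chromosome 1, Cngb3 on 4 and Nrl on 14, and the 3 called genes lie on others, Slc24a1 on 9, Slc8a3 on 12 and Atp2b1 on 10.

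**Figure D3:**
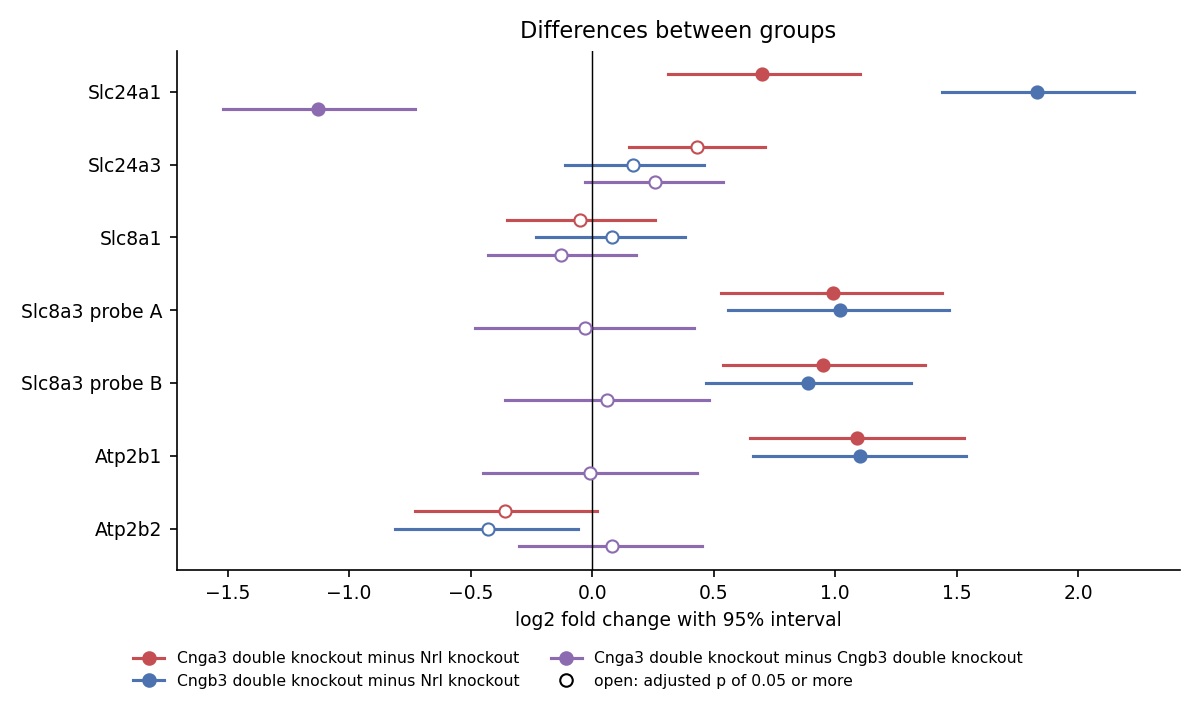
Log2 fold change of the 7 detected probes with its 95% interval in the 3 comparisons; filled points have a limma adjusted p under 0.05. Slc24a1 is the 1 gene whose purple interval, Cnga3 minus Cngb3 double knockout, lies wholly on one side of 0.

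Cnga3 double knockout replicate 4 had the lowest value of its group on 7 of 7 probes. The same array had a summed pigment epithelium signal (7 markers) of 19100, where the other Cnga3 double knockouts had 4650 to 6580, the controls 9000 to 15500 and the Cngb3 double knockouts, with the highest Slc24a1 values, 12700 to 22500. Without it, 5 of the 7 probes were called in the Cnga3 comparison, Slc24a3 being added, and the log2 fold change of Slc24a1 was 0.85 (adjusted p = 0.00818), those of Slc8a3 1.19 and 1.12 and that of Atp2b1 1.16. Whether pigment epithelium in the sample accounts for the low values was not tested.

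The genes whose pattern over the 15 arrays was most like each changed gene are given as a description. For Slc24a1 they were Slc7a5 (Pearson r = 0.909), the endothelin receptor gene Ednrb (0.892), Rbms2 (0.875), Xpnpep1 (0.874) and Adssl1 (0.871). After group means were removed these fell to -0.0681 for Ednrb and 0.0794 for Adssl1, where the likeness lay mostly in the step between groups. Rbms2 kept 0.373, Slc7a5 0.492 and Xpnpep1 0.738. For Atp2b1 they were Ddx5 (0.951), Hspd1, Pja2, Eif4g2 and Eif5 (0.931), with 0.731 to 0.891 after group means were removed. For Slc8a3 they were Atp6v1a (0.944), Lonrf1, Lhx4, Acad8 and Trim2 (0.914), with 0.788 to 0.869. All of these genes were picked by their r over the same 15 arrays, a choice that itself favours high values within groups. The values after removal of group means pool the 3 groups. For Atp2b1 the SD was 0.551 in the control, 0.211 in the Cnga3 and 0.156 in the Cngb3 double knockout. Likeness within each genotype is therefore not shown. These arrays share their normalization, and array quality or tissue makeup enters each coefficient.

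Among the other genes of calcium transport, most were not called. Over 7 lists, 47 of 67 genes were measured by their brightest probe, of which 4 were higher and 3 lower in the Cnga3 double knockout and 2 higher and 3 lower in the Cngb3 double knockout, with medians of 0.01 and 0.03. That is 14.9% and 10.6% of the measured genes, where 9.97% and 3.43% of all 9097 genes were called on any probe. The calls in the Cngb3 double knockout include Cngb3 itself, the gene targeted there. As the lists were chosen with earlier results known, these shares do not test for an excess. Of the other exchangers (4 of 6 measured) limma called 0 in Cnga3 (1 at an unadjusted p under 0.05), with Ghitm at 0.47 and Letm1 at -0.26. In Cngb3, Ghitm, whose product TMBIM5 is a proton-calcium exchanger of mitochondria, rose by 0.65 (limma adjusted p = 0.0376). That call ended in 10 of 15 fits without 1 array (up to 0.0986 without control replicate 5). It also ended with median centring (0.135) and when only the 2 groups compared entered the fit (0.0691). Slc24a4, the gene of the cone exchanger NCKX4, read 7.9 ± 0.403 in the control, 8.12 ± 0.334 in the Cnga3 and 7.77 ± 0.186 in the Cngb3 double knockout and was not called (0.22 and -0.13). Of 3 measured calcium pumps of endoplasmic reticulum and Golgi limma called 0 in either comparison (0 at an unadjusted p), with the reticulum pump Atp2a2 at 0.32 and 0.33 on its brightest probe and its relative Atp2a3 at -0.27 and -0.35.

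Of 12 measured partners of the pumps and exchangers, Dlg4, which encodes the scaffold PSD-95 that anchors PMCA at photoreceptor terminals, rose by 1.14 in the Cnga3 double knockout (limma adjusted p = 0.00787) and read 0.50 in the Cngb3 double knockout (adjusted p = 0.225). No other was called. Basigin (Bsg), a partner needed to bring PMCA to the membrane, read 0.72 and 0.46 (adjusted p = 0.0658 and 0.28). Of 5 sodium-potassium pump subunits and their FXYD regulators, which maintain the sodium gradient that exchangers use, Fxyd5 fell by 0.78 in Cnga3 (adjusted p = 0.0258, -0.31 on the authors' deposited log2 scale) on its brightest probe, while its other probe read -0.54 (adjusted p = 0.263). The Fxyd5 call ended in 4 of 15 fits without 1 array (control replicate 5, 0.0562, and Cnga3 double knockout replicates 1, 0.0541, 2, 0.0626, and 5, 0.0669). In the same list limma called 0 in Cngb3 (2 at an unadjusted p), where Fxyd5 read -0.76 (adjusted p = 0.0506) and Fxyd6 -0.34.

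On the side of calcium entry and sensing, 1 of 10 entry genes rose in Cnga3, the calcium channel regulator Cabp4 (0.58, limma adjusted p = 0.0455), and that call ended in 13 of 15 fits without 1 array (up to 0.0963 without control replicate 2). The other Cabp4 probe read 0.52 (adjusted p = 0.0659). In Cngb3 the 1 called was Cngb3 itself (-2.08), and Cabp4 read -0.35. Between the double knockouts, Cabp4 (0.93, limma adjusted p = 0.0245) and Cngb3 (2.09, 0.0251) were called higher in Cnga3. Those calls ended in 6 and 7 of 15 fits without 1 array, and the other Cabp4 probe read 0.68 (0.0926). Of 7 genes for the guanylate cyclase and calcium sensors, the cyclase activators Guca1b and Guca1a fell and recoverin (Rcvrn) rose in both. Guca1b changed by -3.35 and -2.93, Guca1a by -0.59 and -0.60 and Rcvrn by 0.90 and 0.51. In Cngb3 the calls of Guca1a and Rcvrn ended in 8 and 14 of 15 fits without 1 array, the highest adjusted p, 0.108 and 0.132, coming without Cngb3 double knockout replicate 4. Without control replicates 1 and 3 together, the calls of Guca1a ended in Cnga3 (adjusted p = 0.0756) and in Cngb3 (0.0892), as did that of Rcvrn in Cngb3 (0.0633). Of 6 genes for mitochondrial uptake, the uniporter Mcu rose by 0.84 in Cnga3 on its brightest probe (limma adjusted p = 0.0179). That call ended without control replicate 2 (0.0506) and when only the 2 groups compared entered the fit (0.0509). Over the alternative settings and the fits without 1 array, its log2 fold change was as low as 0.31. The other Mcu probe read 0.91, but its control mean lay below the lowest detected value of every control array (5.27 to 6.01). That value thus starts from the floor and is not separate support. In Cngb3 limma called 0 of the 6 (2 at an unadjusted p), with Mcu at 0.46 and the uniporter subunit Smdt1 at -0.34.

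**Figure D4:**
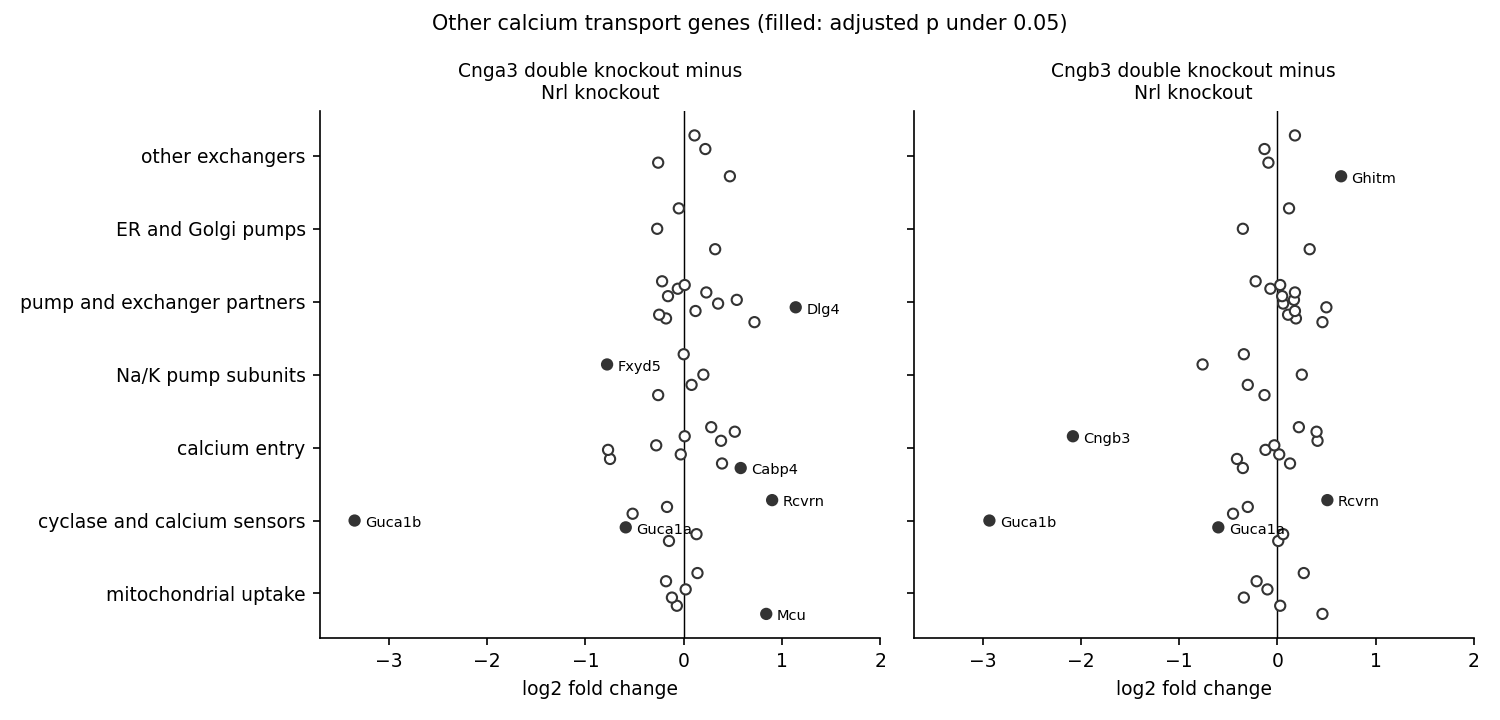
Log2 fold change of the other calcium transport genes, 1 point per gene at its brightest probe, by list and for each double knockout against the control; filled points have a limma adjusted p under 0.05 and are named. Most genes lie near 0, and Guca1b lies farthest from it in both comparisons.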

How the data were processed

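RNA from both retinas of each mouse was labelled with biotin and hybridised to Illumina beadchips, per the labels' protocols. The submitters' processing notes name GenomeStudio; the sources used here give no version or settings for it. The authors deposited a linear intensity per probe and array with, per the file headers, a detection p-value, and a second table of log2 values. The deposited log2 values equal the log2 of quantile-normalized intensities to within 5e-09, with no background subtraction.

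Intensities were normalized here with neqc in limma 3.58.1 (R 4.3.3; normexp background from the negative controls inferred from detection p, offset 16, quantiles, log2). A probe entered the fit when 5 or more arrays detected it (detection p under 0.01), which left 13077 of 25697. All 3 groups entered 1 linear model (12 residual and 4.73 prior degrees of freedom). Tests were limma's moderated test, two-sided, with Benjamini-Hochberg adjustment over all kept probes, called at an adjusted p under 0.05. The fit was tested on simulated data. Probe symbols were updated by gene ID through RefSeq (GRCm38.p6): 23978 probes had 1 symbol, 1719 none and 0 several.

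Named genes are every probe of the 10 genes, the called members of 7 calcium transport lists (where none was called, the 2 with the lowest p), and the 5 genes most correlated with Slc24a1, Atp2b1 and Slc8a3. Slc24a4, and Bsg in the Cnga3 comparison, were added after their values were seen. The genes and lists were chosen with earlier results of these data known. Alternatives changed background, offset, scaling, probe filter, samples in the fit, array weights, a replicate block and single arrays. No slide or date is given for any array, so batches were not analysed here. The number of arrays limits the precision.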

Additional observations from a re-analysis of the deposited data

Results flagged for a closer look

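Atp2b2 in Cnga3 double knockout replicate 4 read 7.45, far below the other 4 arrays of its group (7.86 to 7.98), with a gap of 0.775 of the group's range where 0.71 is the limit. Of 21 groups of 5 values examined this was the 1 that passed, and chance gives about 1 in 20. Slc24a1 differed between the double knockouts, with a log2 fold change of -1.13 for Cnga3 minus Cngb3 (limma adjusted p = 0.0108), 5 of 5 Cnga3 values lying below the 5 Cngb3 values.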

How the results depend on the processing

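The direction of all called member values was the same under the 11 alternative settings and the 15 fits without 1 array. Of the 7 member probes, 4 were called in the Cngb3 comparison under each alternative setting. Without 1 array, 2 to 4 probes (2 to 3 genes) were called there. In the Cnga3 comparison 3 to 5 probes (2 to 4 genes) were called without 1 array, the added gene being Slc24a3. There, 2 were called when only the 2 groups compared entered the fit, which has fewer samples. Slc24a1 (limma adjusted p = 0.0761) and the Slc8a3 probe ILMN_2954449 (0.0532) were lost in that fit, while the Slc8a3 probe ILMN_2683554 stayed called. Between the double knockouts 1 probe of 1 gene was called without any 1 array. Array weights gave 2 probes of 2 genes there, adding Slc24a3 (adjusted p = 0.0278). The deposited log2 values ended the Cnga3 call of Slc24a1 (0.0555) and called Slc24a3 (0.028); the cause was not tested. Over all member probes, comparisons and fits, 19 fold changes that were not called changed their sign.

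Counts over all probes moved more. Against 1051, 351 and 53 calls for the Cnga3, Cngb3 and double knockout comparisons, leaving out 1 array gave 551 to 1229, 130 to 828 and 19 to 180. The lowest came without Cnga3 double knockout replicate 5, Cngb3 double knockout replicate 1 and Cngb3 double knockout replicate 2, and the highest without control replicate 1 (first 2) and Cnga3 double knockout replicate 1. Control replicate 2 alone took the counts to 552, 154 and 32. Array weights gave 1880, 1054 and 1170, the fit of only the 2 groups gave 323 and 230 for the first comparisons, median centring 201 for the last, and leaving out control replicates 1 and 3 gave 849 and 94 for the last 2. After group means were removed, same-numbered arrays correlated at -0.107 to 0.28, above 0.1 in 4 of 15 pairs. Arrays numbered 4 correlated above 0.1 in each comparison (0.214, 0.28 and 0.14). These values do not decide whether the numbers pair the animals. With a replicate block 3, 4 and 1 member probes were called, Slc24a1 in the Cnga3 comparison being lost (adjusted p = 0.0525), and 122 probes in all between the double knockouts.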

Other observations

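Across the 15 arrays the 2 detected Slc8a3 probes followed each other (r = 0.911, and 0.727 after group means were removed). Slc8a3 and Atp2b1 had r = 0.806, which was 0.35 within groups. Atp2b1 and Atp2b2 ran in opposite directions (r = -0.728, and -0.545 within groups). These coefficients are descriptions over arrays that share normalization, and control replicate 3, lowest for Atp2b1 and highest for Atp2b2, is also the array with the fewest detected probes.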
